A study of Mus musculus with 10 samples.

Results

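The chromatin loops of mouse macrophages (MFs) from which IL-4 had been washed out were compared with the loops of MFs that were harvested in IL-4. A loop was a pair of 10 kb bins of the genome called in a Hi-C map, in which DNA ends that lay together in the nucleus are joined and sequenced, and each loop carried the number of contacts (joined read pairs) that fell on it. The washed-out state, M2p[pIL-4], had 67728 loops and the state in IL-4, M2[IL-4], had 58260, of 301424 loops in the 5 lists of the series. Every loop of both lists was used, and no loop was chosen by its values.

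All cells were bone marrow-derived MFs (BMDMs) of young adult female wild-type C57BL/6 mice, grown for 6 days in M-CSF. M2[IL-4] cells then received 20 ng/ml IL-4 for 24 h. M2p[pIL-4] cells received the same treatment, were washed and rested for 24 h without the cytokine, so that washing, rest and the longer culture cannot be told apart. Of the other lists, set beside both as reference values, M0[CTR] came from untreated cells, IFNG from cells given 20 ng/ml interferon gamma for 3 h, and preIL4IFNG from cells that went through IL-4, washing and rest before interferon gamma for 3 h. Each group had 2 labelled samples that were pooled into 1 list, so no spread between samples could be measured, no test between groups was made, and every interval given is a 95% interval that covers counting error only. Hi-C contacts are not RNA levels, and the identity of the cells was not checked by them.

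IL-4 binds the IL-4 receptor, whose JAK kinases activate the transcription factor STAT6, and in MFs this turns on the alternative activation program with Arg1 as its best known gene. Chromatin loops bring distant DNA together. Many are held by the ring-shaped cohesin complex stopped at CTCF, a zinc finger protein that binds a directional DNA motif, and others join promoters to enhancers. Whether contacts made under a cytokine outlast it was the question that the washed-out state addressed.

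The DNA at the loops that the results turn on is shown first. The promoters of F7 and F10, coagulation factors VII and X, lay in a region with fewer loops after washout, and those of Abcb6, a porphyrin transporter, and Cyp27a1, the sterol 27-hydroxylase, lay in the anchor bins of a loop found after washout. Sequences are those of RefSeq on GRCm38.p6, from 250 bases before to 50 bases after the transcription start site (TSS), and capitals mark a match to the EGR motif GTGGGCG on either strand.
F7 promoter, chr8:13025784-13026083, forward strand: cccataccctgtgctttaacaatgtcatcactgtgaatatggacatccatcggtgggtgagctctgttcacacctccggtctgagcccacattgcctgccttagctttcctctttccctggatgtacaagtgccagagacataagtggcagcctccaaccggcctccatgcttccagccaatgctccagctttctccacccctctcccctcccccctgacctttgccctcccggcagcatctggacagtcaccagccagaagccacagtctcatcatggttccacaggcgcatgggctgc
F10 promoter, chr8:13037058-13037357, forward strand: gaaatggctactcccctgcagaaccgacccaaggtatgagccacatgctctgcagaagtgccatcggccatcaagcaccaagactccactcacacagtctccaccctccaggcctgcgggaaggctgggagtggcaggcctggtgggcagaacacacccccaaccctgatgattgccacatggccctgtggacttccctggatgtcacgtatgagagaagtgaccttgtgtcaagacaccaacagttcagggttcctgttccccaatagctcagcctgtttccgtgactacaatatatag
Abcb6 promoter, chr1:75180343-75180642, reverse strand: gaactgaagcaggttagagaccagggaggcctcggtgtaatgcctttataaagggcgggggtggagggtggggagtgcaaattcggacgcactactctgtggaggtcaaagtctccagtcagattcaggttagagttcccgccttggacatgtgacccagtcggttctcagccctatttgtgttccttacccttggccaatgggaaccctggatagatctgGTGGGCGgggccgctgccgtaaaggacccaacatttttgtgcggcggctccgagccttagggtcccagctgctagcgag
Cyp27a1 promoter, chr1:74713285-74713584, forward strand: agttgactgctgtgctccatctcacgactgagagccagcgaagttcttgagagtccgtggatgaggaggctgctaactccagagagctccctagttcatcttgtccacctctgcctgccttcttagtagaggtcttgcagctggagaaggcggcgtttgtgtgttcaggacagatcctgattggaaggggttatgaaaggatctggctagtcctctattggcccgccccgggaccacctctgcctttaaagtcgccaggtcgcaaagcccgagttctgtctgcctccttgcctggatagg
None of the 4 held the STAT motif TTCNNNNGAA, which 6.95% of 32851 mouse promoters of this length held. The Abcb6 promoter had 1 EGR match, and 7.97% of all promoters had at least 1. A match, or its absence in this window, says nothing of binding.

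Anchor bins of 17 loops, the 10 strongest lost and gained ones and 7 near Arg1, F7 and F10, Atp6v0d2, Ccl2, Ciita and Klf4, were searched for the CTCF core motif on both strands, and 9 of the 34 anchors held a match. The 8 distinct sites are printed 5′ to 3′ along the motif in windows of 60 bases, with the core in capitals.
Arg1 strongest kept loop, downstream anchor in Akap7, chr10:25219323-25219382, reverse strand: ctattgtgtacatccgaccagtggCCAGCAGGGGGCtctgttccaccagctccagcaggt
F7 and F10 strongest kept loop, downstream anchor in Pcid2, chr8:13093287-13093346, reverse strand: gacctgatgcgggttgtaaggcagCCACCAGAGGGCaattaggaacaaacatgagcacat
Atp6v0d2 strongest kept loop, downstream anchor in Atp6v0d2, chr4:19901280-19901339, reverse strand: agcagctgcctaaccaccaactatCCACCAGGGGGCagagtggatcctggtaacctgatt
Ccl2 strongest kept loop, downstream anchor in Ccl1, chr11:82174940-82174999, reverse strand: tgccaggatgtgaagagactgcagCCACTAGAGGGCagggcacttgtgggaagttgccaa
strongest lost loop, upstream anchor, chr4:146483657-146483716, forward strand: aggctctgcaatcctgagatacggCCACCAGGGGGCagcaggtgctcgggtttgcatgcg
lost loop from Rab4a to Abcb10, downstream anchor, chr8:123967092-123967151, reverse strand: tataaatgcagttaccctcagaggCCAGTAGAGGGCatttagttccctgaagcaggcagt
gained loop of 950 kb on chromosome 10, upstream anchor, chr10:96214022-96214081, forward strand: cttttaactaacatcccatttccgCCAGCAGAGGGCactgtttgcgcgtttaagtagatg
gained loop from Cabin1 to Gm5134, upstream anchor, chr10:75744181-75744240, forward strand: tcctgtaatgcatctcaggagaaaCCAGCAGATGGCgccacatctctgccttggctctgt
In 8 of the 9 matches the motif pointed into the loop, on the forward strand of an upstream anchor or the reverse strand of a downstream anchor. The exception was the site in Atp6v0d2, which served as the downstream anchor of a loop found in both lists and as the upstream anchor of a loop found after washout, where it pointed outward.

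The list of the washed-out MFs held more loops, and within 25 kb most loops were common to both lists. The paper gives sequencing depth as a range over libraries and not by group. Whether depth set the list lengths was not tested. M2p[pIL-4] had 1.16 times as many loops as M2[IL-4] and held 1.15 times as many contacts, 2787117 against 2416249. Touching bin pairs often formed patches, and once each patch was counted as 1 loop the numbers were 22689 and 20638, a ratio of 1.10. The lists of M0[CTR], IFNG and preIL4IFNG held 53424, 55012 and 67000 loops, so the 2 groups that had been washed and rested had the longest lists, and the median loop of every list carried 32 contacts. The ratio of M2p[pIL-4] to M2[IL-4] ranged over the autosomes from 1.12 on chromosomes 5 and 8 to 1.27 on chromosome 14, and on the X chromosome 142 loops stood against 195.

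A loop was taken as kept when the other list had a loop with both anchors within 25 kb, that is within 2 bins. Of the M2[IL-4] loops, 52385 were kept in M2p[pIL-4], or 89.9% (95% Wilson interval 89.7 to 90.2), and 5875 were not, called lost here. Of the M2p[pIL-4] loops, 59016 were present in M2[IL-4], or 87.1% (86.9 to 87.4), and 8712 were not, called gained here. These shares depended on the tolerance. In the very same bins 51.1% of the M2[IL-4] loops were kept and 44.0% of the M2p[pIL-4] loops were present in M2[IL-4]. With touching bin pairs merged and the tolerance of 25 kb, the shares were 65.2% and 59.8%. The order of lost and gained loops followed the list lengths: with the longer list cut to its 58260 strongest loops, 7091 were lost and 6573 gained.

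Strong loops were kept more often than weak ones. Strength was taken as the number of contacts divided by the median of all loops of that span in the same list. Of the 5826 strongest M2[IL-4] loops 99.1% were kept (98.8 to 99.3), and of the 5826 weakest 81.2% (80.2 to 82.2). In the very same bins only 26.9% of the weakest were found again. In reverse, 98.7% of the 6773 strongest and 76.6% of the 6772 weakest M2p[pIL-4] loops had a match under IL-4. Lost and gained loops had medians of 21 and 22 contacts, against 33 for kept loops of either list.

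Lost and gained loops differed from kept loops in span more than from each other. The median span was 280 kb for lost loops, 240 kb for gained loops and 160 kb for kept loops. Among loops of 20 to 90 kb, 5.39% of the M2[IL-4] loops were lost (5.03 to 5.77) and 8.67% of the M2p[pIL-4] loops were gained (8.26 to 9.10). Among loops of 500 kb or more, 27.0% were lost (25.9 to 28.1) and 30.2% were gained (29.1 to 31.2). Loops between adjacent bins stood apart. They were the only span class with fewer loops after washout, 3078 against 3295, and in that class 625 loops were lost and 550 gained, the latter 17.9% (16.6 to 19.3).

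**Figure D1:**
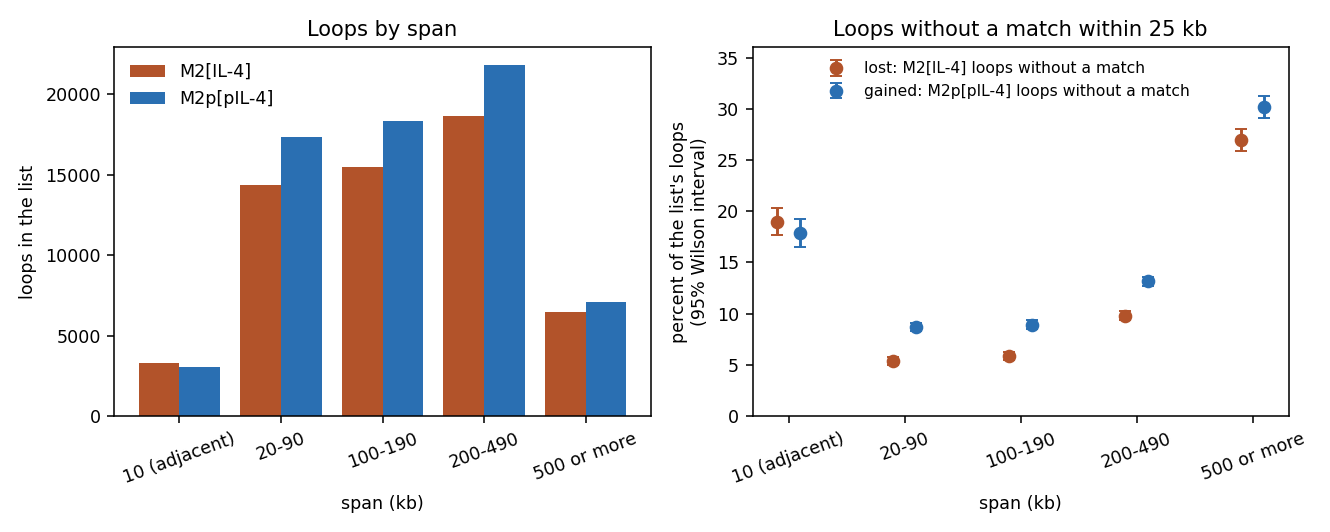
Loops by span in kb. Left, the number of loops in either state. Right, the percent of each list's loops without a match in the other list, with 95% Wilson intervals that cover counting error only. The washed-out list is longer in every class except adjacent bins, 3078 against 3295, and the share without a match is highest at 500 kb or more, 27.0% and 30.2%.

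Most lost loops were not called in untreated cells, and gained loops were found there somewhat more often. Of the lost loops 28.3% (27.2 to 29.5) had a match in M0[CTR], and of the gained loops 35.1% (34.1 to 36.1). In IFNG the shares were 29.2% and 34.8%. In preIL4IFNG, the longest of the 3 lists, they were 38.0% (36.8 to 39.3) and 43.7% (42.7 to 44.8). Kept loops were matched far more widely, with 93.4% of the kept M2p[pIL-4] loops in M0[CTR] and 95.3% in preIL4IFNG.

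Many of the loops found in only 1 of the compared states were found nowhere else. Of the lost loops 2627, or 44.7% (43.4 to 46.0), were in none of the other 3 lists, and 664, or 11.3%, were in all 3. Of the gained loops 3354, or 38.5% (37.5 to 39.5), were in none and 1390, or 16.0%, in all 3. Loops gained after washout and held besides only by preIL4IFNG, which shares the washing and rest, numbered 1007, or 11.6% of gained loops (10.9 to 12.2). The same pattern was as frequent among lost loops, with 732 or 12.5% (11.6 to 13.3) held besides only by preIL4IFNG.

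The anchors of lost and gained loops held promoters and CTCF motifs less often than those of kept loops. A TSS of a protein-coding gene lay in the bin of a single anchor in 19.3% of lost loops (18.3 to 20.3), 19.4% of gained loops (18.5 to 20.2) and 25.4% of kept M2p[pIL-4] loops (25.1 to 25.8). Both anchors held a TSS in 3.18%, 3.87% and 4.65%. A match to the CTCF core was present in 10.4% of the 10349 bins at lost anchors, in 10.2% of the 14570 bins at gained anchors and in 11.6% of the 38380 bins at kept M2p[pIL-4] anchors, beside 4.71% of all 255803 bins of the genome. Motifs that faced each other across the loop were found in 0.953% of lost loops (0.735 to 1.24), 0.884% of gained loops (0.708 to 1.10) and 1.42% of kept M2p[pIL-4] loops (1.33 to 1.52). Motifs that faced away from each other were found in 0.255%, 0.149% and 0.197% of them. Neighbouring loops share bins, so these intervals are narrower than independent loops would give.

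A few anchor bins carried several loops in 1 list and none in the other. With 5 or more loops against 0, there were 27 such bins in M2[IL-4] and 99 in M2p[pIL-4], of 46353 bins used by the latter. Among the 99, 13 had no loop in M0[CTR] and IFNG but 5 or more in preIL4IFNG, and among the 27 the same held for 3. One of these 3, in Ccdc12 (chr9:110710001-110720000), had 11 loops in M2[IL-4], 12 in preIL4IFNG and 0 in the other 3 lists. A bin in Tes (chr6:17100001-17110000), which codes for a focal adhesion protein, had 13 loops in M2p[pIL-4], 12 in preIL4IFNG and 0 in the other 3 lists. A bin over Hint1 and Lyrm7 (chr11:54860001-54870000) had 15 loops in M2p[pIL-4] and 0 in all others, and a bin in Qrich2 (chr11:116450001-116460000) had 15 in M2[IL-4] and 0 in all others. Of the 166 M2[IL-4] loops at the 27 bins 39 were lost, and of the 626 M2p[pIL-4] loops at the 99 bins 105 were gained. Most loops at these bins thus had a match within 25 kb in the other list. Whether sequencing or mapping of single bins set them was not tested.

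Genes were compared by the loops with an anchor within 100 kb of their TSS, in numbers scaled to equal list lengths with 1 added, and given as the log2 of M2p[pIL-4] over M2[IL-4]. Of 9961 protein-coding genes with at least 20 loops over both lists, 517 were called higher after washout at 1.5-fold, which is 5.19% of them, and 416 were called lower, 4.18%. The median over all 9961 was -0.02. The intervals of these ratios count each bin pair as independent. Touching pairs form patches, so the intervals are narrower than independent loops would give. Neighbouring genes share loops, and called genes within 200 kb of each other fell into 218 loci higher and 167 loci lower. The genes called higher had medians of 14 loops in untreated cells, 9 under IL-4 and 21 after washout, and those called lower had 13, 21 and 13.5. The second and the third of these numbers were set by the call itself. With each patch of touching bin pairs counted once, 91 of the 517 and 118 of the 416 still had enough loops to be tested, and 29 and 36 of these were called the same way.

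Arg1, the arginase that turns arginine into ornithine and urea, had fewer loops after washout than under IL-4. Within 100 kb of its TSS there were 11 loops in untreated cells, 30 under IL-4, 16 after washout, 15 in IFNG and 24 in preIL4IFNG. The washed-out cells stood near untreated and IFNG cells, and cells in IL-4 and cells given interferon gamma after washout had more. The log2 ratio was -1.07 (95% interval -2.10 to -0.20), the 29th lowest of 9961 genes. Of the 30 loops under IL-4, 28 had a match within 25 kb, and as patches there were 6 in both lists, so patches of equal number covered fewer bin pairs.

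The loops at Arg1 ran from a stretch over Med23, Arg1 and the upstream flank to Akap7, which codes for an anchor protein of protein kinase A, and in neither state did one end in the bin of the Arg1 TSS. The strongest one joined chr10:24960001-24970000 to chr10:25210001-25220000, 250 kb apart, at the CTCF site printed above. It carried 25 contacts in untreated cells, 46 under IL-4 (Poisson interval 33.7 to 61.4), 35 after washout, 30 in IFNG and 42 in preIL4IFNG. The order of the 5 lists was that of the loop numbers, with the washed-out state between IL-4 and untreated. Med23, a Mediator subunit gene next to Arg1 that is named here after its values were seen, shares these loops and had 10, 22, 12, 14 and 20 in the same order of lists.

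The coagulation factor genes F7 and F10 lie side by side and were both called lower, yet kept far more loops than untreated cells had. Near F10 there were 9 loops in untreated cells, 48 under IL-4, 35 after washout, 4 in IFNG and 18 in preIL4IFNG, and near F7 the numbers were 9, 48, 33, 3 and 18. The log2 ratios were -0.66 (-1.34 to -0.01) for F10 and -0.74 (-1.44 to -0.09) for F7. Both windows hold mostly the same loops, so they are 1 observation.

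Part of the difference at F7 and F10 lay in contacts between adjacent bins. Under IL-4, 7 loops near F10 joined adjacent bins, with up to 151 contacts in 1 of them, and M0[CTR], M2p[pIL-4], IFNG and preIL4IFNG had 0. A difference of 7 or more such loops toward M2[IL-4] was found at 18 of 21728 genes, neighbours that share loops included, and one toward M2p[pIL-4] at 0. Without adjacent bins the numbers at F10 were 41 and 35 and the log2 ratio was -0.45, short of the 1.5-fold call. The strongest longer loop, from chr8:13000001-13010000 in Mcf2l to chr8:13090001-13100000 in Pcid2, had 71 contacts under IL-4 and 52 after washout in the same bins. M0[CTR] had no loop there, with a loop of 45 contacts within 25 kb, IFNG had none within 25 kb, and preIL4IFNG had one of 51.

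Slc7a2, which codes for a transporter that imports arginine, had 12 loops under IL-4 and 4 after washout, with 4 in M0[CTR], 4 in IFNG and 5 in preIL4IFNG. In loop number M2[IL-4] stood alone above the other lists, but not in contacts. The strongest kept loop, of 80 kb from Pdgfrl to Mtus1, had 56 contacts under IL-4 and 74 after washout. It had 75 in M0[CTR], 65 in IFNG and 70 in preIL4IFNG. At the 3 bin pairs called in both compared lists, contacts were 114 under IL-4 and 140 after washout (log2 0.25, -0.11 to 0.62). The 16 loops over both lists were too few for a call, and the interval of the log2 ratio, -1.57, reached up to -0.08. Of the 12 loops, 6 were lost, among them one of 240 kb from Mtmr7 to the flank of Slc7a2 with 25 contacts. Of the other lists, preIL4IFNG alone had a loop within 25 kb of it, with 20.

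**Figure D2:**
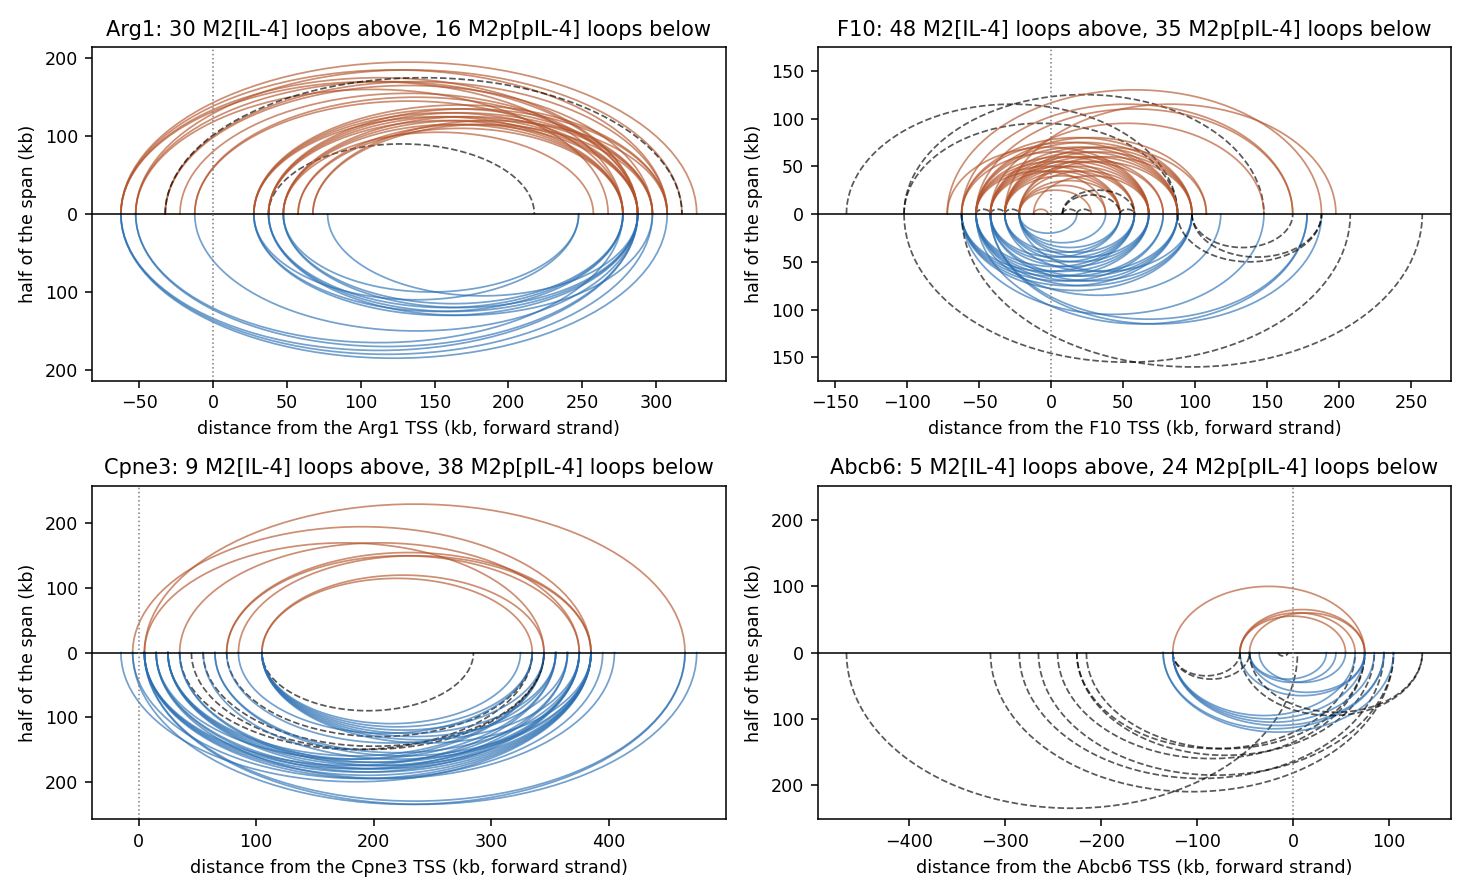
Loops within 100 kb of the TSS of Arg1, F10, Cpne3 and Abcb6, drawn as arcs between their anchors by distance from the TSS in kb along the forward strand, with the height equal to 50% of the span. M2[IL-4] loops are above the line and M2p[pIL-4] loops below, solid where the other list has a match within 25 kb and dashed black where it has none. Nearly all arcs at Arg1 are solid although 30 bin pairs stand against 16, Cpne3 has 9 against 38 with 5 of the 38 dashed, and Abcb6 has 13 dashed arcs after washout.

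The 10 lowest ratios among the 9961 genes tested, with genes within 200 kb of one already taken left out, were those of Flt1, Med9, Hhip, Pamr1, 4930415O20Rik, Fbxw8, Lbh, Cggbp1, Elfn1 and Pdik1l. These genes, and the 10 highest below, were picked by this same ratio. Their M2[IL-4] and M2p[pIL-4] numbers are extreme by that choice, and their intervals do not allow for it. Flt1, the gene for a receptor of vascular endothelial growth factors, had 3 loops in untreated cells, 22 under IL-4, 9 after washout, 17 in IFNG and 22 in preIL4IFNG, a log2 ratio of -1.40 (-2.81 to -0.33). Its washed-out value lay between those of untreated cells and of cells in IL-4, and 7 of the 22 loops were lost. Elfn1 had 9, 40, 20, 11 and 17 loops in the same order, and Mafk, a neighbour that codes for a small Maf transcription factor, was called lower with it. Lbh, a transcription cofactor gene, had 16, 35, 17, 23 and 31. Cggbp1, which codes for a protein that binds CGG repeats, had 10, 31, 15, 3 and 15. At each of these 4, in unscaled numbers, the list in IL-4 held the most loops or tied for the most. The washed-out list was at least as high as the untreated one. The washed-out list was also longer, 67728 loops against 53424, and for its length the 17 against 16 at Lbh was not higher.

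At 5 of the remaining 6 the washed-out list was below the untreated one. Med9, a Mediator subunit gene, had 13 loops in untreated cells, 24 under IL-4 and 10 after washout, Hhip, which codes for an inhibitor of hedgehog ligands, had 9, 17 and 7, and Fbxw8, a ubiquitin ligase subunit gene, 11, 18 and 8. Pdik1l, a kinase gene, had 19, 32 and 16, and 33 in preIL4IFNG, and 4930415O20Rik had 15, 14 and 6, and 16 in preIL4IFNG, so at these genes M2[IL-4] was not the highest list. Pamr1 had 12, 27 and 12. The lowest log2 ratio was -1.40 and the highest of the 10 was -1.16. The interval of 4930415O20Rik, -3.11 to 0.03, held 0.

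The region of Cpne3, Wwp1, Slc7a13 and Atp6v0d2 on chromosome 4 went the other way, with few loops under IL-4 and many after washout. Cpne3, which codes for a copine that binds calcium and phospholipids, had 49 loops in untreated cells, 9 under IL-4, 38 after washout, 14 in IFNG and 17 in preIL4IFNG, a log2 ratio of 1.76 (0.79 to 3.09). Untreated and washed-out cells were both high, and the other 3 lists were low. At Atp6v0d2, further along the chromosome and named after its values were seen, the numbers were 73, 29, 68, 34 and 40. Atp6v0d2 codes for a subunit of the proton pump that acidifies lysosomes.

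Loops of this region ran from the Cpne3 to Wwp1 stretch to Atp6v0d2 and the DNA beyond it. The strongest one near Atp6v0d2 ran over 210 kb from chr4:19690001-19700000 in Wwp1 to chr4:19900001-19910000 in Atp6v0d2 and carried 61 contacts in untreated cells, 58 under IL-4, 88 after washout, 62 in IFNG and 76 in preIL4IFNG. Both washed and rested groups had the highest contacts. A loop of 50 kb from the same bin of Atp6v0d2 to chr4:19950001-19960000 had 80 contacts in M2p[pIL-4] and 65 in preIL4IFNG and was not called within 25 kb in the other 3 lists. As patches, Cpne3 had 5 loops in either list and its log2 ratio was -0.11, so here patches of equal number covered more bin pairs.

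At Abcb6 and Ihh on chromosome 1 many of the added loops had no counterpart under IL-4. Abcb6 had 15 loops in untreated cells, 5 under IL-4, 24 after washout, 19 in IFNG and 27 in preIL4IFNG, a log2 ratio of 1.86 (0.63 to 3.79). Ihh, the hedgehog ligand gene with the highest ratio of all genes tested, had 11, 3, 17, 18 and 24, a log2 ratio of 1.99 (0.50 to 4.70). M2[IL-4] was the lowest list at both, which choosing genes by this ratio favoured. Loops that join their windows count for both genes, so they are not separate observations. Of the 24 loops after washout at Abcb6, 13 had no match under IL-4, and as patches the numbers were 12 against 2. The strongest gained loop there spanned 470 kb from the bin of the Cyp27a1 TSS (chr1:74710001-74720000) to that of the Abcb6 TSS (chr1:75180001-75190000), the promoters printed above, and had 20 contacts in M2p[pIL-4] (Poisson interval 12.2 to 30.9) and no loop within 25 kb in any other list.

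The Schlafen cluster, whose genes respond to interferon, and Cd28, the costimulatory receptor gene known from T cells, also had more loops after washout than under IL-4. Slfn8 had 17 loops in untreated cells, 6 under IL-4, 23 after washout, 36 in IFNG and 42 in preIL4IFNG, a log2 ratio of 1.58 (0.38 to 3.31). Both lists after interferon gamma were higher still, and M2[IL-4] was the lowest. Cd28 had 13, 8, 26, 6 and 11 in the same order, with the washed-out list highest. Its log2 ratio was 1.38 (0.30 to 2.84), and 14 of the 26 loops were gained. Of the remaining genes among the 10 highest, Pde7b, a cyclic AMP phosphodiesterase gene, had 4 loops under IL-4 and 16 after washout, Gabpb1, a subunit gene of the GA-binding factor, 5 and 18, and Nxpe4 7 and 23. AW011738 and Dennd2c each had 5 and 16, and the interval of their log2 ratio, -0.05 to 3.26, held 0. Isg15, the ubiquitin-like interferon-stimulated gene, was called higher beside AW011738.

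**Figure D3:**
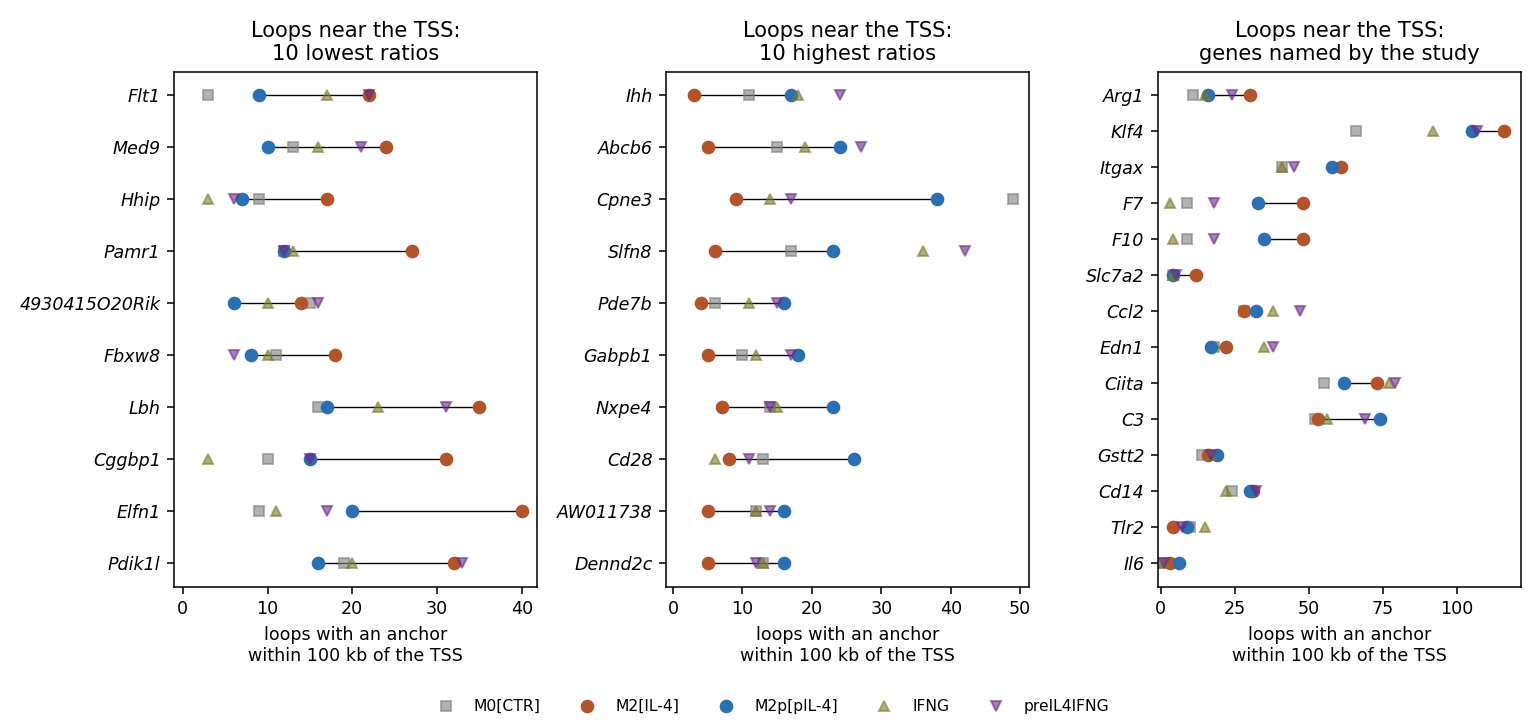
Number of loops with an anchor within 100 kb of the TSS in each of the 5 lists, as deposited and without scaling, for the 10 lowest and the 10 highest scaled ratios of M2p[pIL-4] to M2[IL-4] and for 14 genes named by the study. The black line joins both compared lists. Cpne3 has 49 loops in untreated cells, 9 under IL-4 and 38 after washout, and Arg1 has 11, 30 and 16.

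Genes of alternative activation leaned toward fewer loops after washout, with 3 of 19 tested called lower and 0 higher, where 4.18% and 5.19% of all genes were. The 3 were Arg1, F7 and F10, which are 2 loci. The study names all 3 for loops in these same maps, so this count is not independent of them. Of the 23 annotated members, 4 had too few loops to be tested. The median log2 ratio of the 19 was -0.18 beside -0.02 for all genes, 14 of the 19 were below 0, and with loops within 25 kb of the TSS the list's median was 0.03 above that of all genes. The chemokine gene Ccl24 had 79 loops under IL-4 and 76 after washout, and Tgm2, which codes for transglutaminase 2, had 28 and 25. Mrc1, the mannose receptor gene, had 14 and 23 (log2 0.47), and Alox15, the lipoxygenase gene, 59 and 80. Fn1, the fibronectin gene, had 4 loops in untreated cells, 18 under IL-4, 17 after washout, 5 in IFNG and 14 in preIL4IFNG, and all 3 lists that had seen IL-4 were above both that had not. Retnla had no loop in any list and Chil3 at most 1, so nothing can be said of them.

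Genes of the IL-4 receptor, its signalling and its response factors did not lean either way, with 1 of 20 tested called higher and 0 lower and a median of 0.02, while 2 more had too few loops. The 1 was Jak1, the kinase gene, with 9 loops under IL-4 and 18 after washout, and its interval, -0.45 to 2.12, held 0. Il4ra, the receptor chain gene, had 32 loops in untreated cells, 27 under IL-4, 43 after washout, 36 in IFNG and 42 in preIL4IFNG. Its log2 ratio was 0.44 (-0.27 to 1.21). Stat6 had 54 loops under IL-4 and 55 after washout, and Irs2, the adaptor gene, 39 and 56.

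Klf4, Egr2 and Myc, genes of response factors, had their highest numbers under IL-4. Klf4, a zinc finger factor gene, had 66 loops in untreated cells, 116 under IL-4, 105 after washout, 92 in IFNG and 107 in preIL4IFNG. Egr2, which codes for a zinc finger factor that STAT6 induces, had 48, 81, 64, 48 and 77, and Myc 29, 52, 42, 34 and 41. Their log2 ratios were -0.36 (up to 0.03), -0.55 (-1.05 to -0.07) and -0.51 (up to 0.09), and none reached the 1.5-fold call, although Myc did with loops within 50 kb. All 3 washed-out values lay between those of untreated cells and of cells in IL-4. The 3 were among 8 of the 20 tested genes of this list with a log2 ratio below 0, and 12 were above 0. Among those 12, Pparg had 25 loops under IL-4 and 34 after washout, Mitf 16 and 23, and Irf4 21 and 26.

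**Figure D4:**
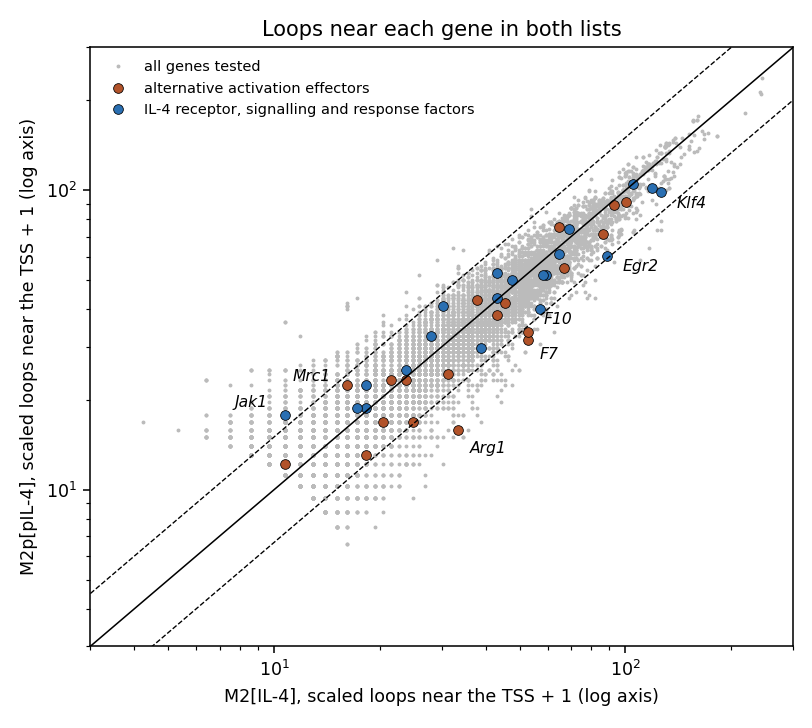
Scaled number of loops near each TSS plus 1 in M2[IL-4] (x axis, log scale) and M2p[pIL-4] (y axis, log scale) for 9961 genes, with genes of alternative activation in orange and of the IL-4 receptor, signalling and response factors in blue. The solid line marks equal numbers and the dashed lines 1.5-fold. Arg1, F7 and F10 lie below the lower dashed line and Jak1 above the upper one.

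Among genes that the study names as examples, some of them for their loops in these same maps and so not independent of them, no gene besides Arg1, F7 and F10 was called. Itgax, an integrin chain gene, had 61 loops under IL-4 and 58 after washout, against 41 in M0[CTR]. Edn1, the endothelin gene, had 22 and 17, Ciita, the activator of MHC class II genes, 73 and 62, and Ccl2, the monocyte chemokine gene, 28 and 32. The strongest loop near Ccl2, 190 kb long and ending at the CTCF site in Ccl1 printed above, was in every list, with 80 contacts under IL-4 and 88 after washout. C3, the complement gene, had 53 and 74, and Gstt2, a glutathione transferase gene, 16 and 19. Il6 had 3 loops under IL-4 and 6 after washout, with 1 in each of the other lists, and Tlr2 had 4 and 9, too few for a call. The Tlr2 TSS bin was an anchor of 1 gained loop of 30 kb with 58 contacts, and untreated cells had a loop of 40 contacts within 25 kb of it. Mgst1 had 1 loop under IL-4 and 0 after washout.

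Lists of other programs and cell types had 1 call in all, where 5.19% of all genes tested were called higher and 4.18% lower. Calls were rarer at genes with many loops. Of 6803 genes with at least 40 loops, 142 were called higher and 175 lower. Many genes of these lists had that many, so the shares over all genes are not a matched comparison. Of 16 tested inflammatory genes, 14 of the interferon gamma response, 10 of cholesterol metabolism, 15 immediate early and AP-1 genes and 15 of the macrophage lineage, 0 were called in either direction, and 16 further members of these lists had too few loops. Gbp3, a guanylate-binding protein gene, had 10 loops under IL-4 and 12 after washout, far from the 43 in IFNG and 61 in preIL4IFNG. Junb had 24 and 35, Spi1, the gene of the lineage factor PU.1, 54 and 56, and Csf1r, the M-CSF receptor gene, 30 and 32. Of 13 tested markers of other cell types 0 were called, and of 15 housekeeping genes 1, Ppia, with 14 and 10 loops. The medians of these 7 lists ran from -0.04 to -0.01, close to the -0.02 of all genes.

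The 5 strongest lost and the 5 strongest gained loops spanned 150 to 950 kb. The strongest lost loop by strength spanned 920 kb from chr4:146480001-146490000 to chr4:147400001-147410000, with 21 contacts under IL-4 (13.0 to 32.1, Poisson) and 12 in untreated cells. The one from Rab4a (chr8:123810001-123820000) to Abcb10 (chr8:123960001-123970000) had 54 contacts under IL-4 and no loop within 25 kb in the 4 other lists, and so did one from Arvcf (chr16:18370001-18380000 to chr16:18610001-18620000) with 42. The remaining lost loops of the 5 had 22 and 24 contacts and spans of 680 and 580 kb, and each had a match in M0[CTR], IFNG and preIL4IFNG.

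The strongest gained loop spanned 610 kb from the bin of the St3gal1 TSS (chr15:67170001-67180000) to chr15:67780001-67790000. St3gal1 codes for a sialyltransferase. The loop carried 35 contacts in M2p[pIL-4] (Poisson interval 24.4 to 48.7), and preIL4IFNG had one of 14 within 25 kb and the other lists none. A loop from Stx8 to the TSS bin of Ntn1, the netrin gene, had 34 contacts after washout, 31 in IFNG and 20 in untreated cells. A loop from Cabin1 to the TSS bin of Gm5134 had 50 and, in IFNG, 31, and a loop from Zdhhc19 to the TSS bin of Muc20 had 42, with 33 in M0[CTR] and 32 in preIL4IFNG. At these 3, M2[IL-4] had no loop within 25 kb where untreated or interferon gamma-treated cells had one. The fifth, of 950 kb on chromosome 10, had 22 contacts and 17 in preIL4IFNG.

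Where both lists called the same bin pair, contacts hardly differed. The 29776 shared pairs held 1411563 contacts in M2[IL-4] and 1453189 in M2p[pIL-4], a ratio of 1.03, and the median log2 ratio was 0.03 with quartiles at -0.13 and 0.19. There were 32 pairs at least 2-fold higher after washout and 9 at least 2-fold lower. Every pair had to be called in both lists, which 51.1% of the M2[IL-4] and 44.0% of the M2p[pIL-4] loops were. The comparison leaves out pairs that fell below the call in 1 list, and cannot show how far those differed.

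The extremes of contacts at shared pairs lay in the Arg1 and the Cpne3 to Atp6v0d2 regions. Contacts were summed within 100 kb of each TSS, divided by the overall ratio of 1.03 and ranked for 9093 genes with at least 400 contacts over both lists, a minimum set after the data were seen. The SD of the log2 ratio over these genes was 0.07. The lowest gene was Med23, with 274 contacts under IL-4 and 220 after washout (log2 -0.36, interval -0.62 to -0.10), and the next was Arg1, with 330 and 273 (-0.32, -0.55 to -0.08). The highest was Slc7a13, an amino acid transporter gene between Cpne3 and Atp6v0d2, with 431 and 571 (0.36, 0.18 to 0.55), and Atp6v0d2 had 688 and 790 (0.16, 0.01 to 0.31). With a minimum of 200 contacts Arg1 was the 20th lowest of 10794 genes. Loop numbers and contacts come from the same maps and are not independent readouts.

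Contacts at other genes differed less. F10 had 882 contacts under IL-4 and 860 after washout at 20 shared pairs (-0.08, -0.22 to 0.06). Its call was made on loop numbers, which count these 20 pairs in both lists whatever the size of their contacts. Irf1, a transcription factor gene of the interferon response, had 1336 and 1215 (-0.18, -0.29 to -0.07), with 32 and 33 loops. Il4ra had 808 and 921 (0.15, 0.01 to 0.29), Klf4 726 and 754 (0.01, -0.14 to 0.16) and Stat6 2827 and 2985 (0.04, -0.04 to 0.11). Of the 10 genes with the lowest ratio of loop numbers, Med9 and 4930415O20Rik had enough contacts to be ranked, and their log2 ratios were 0.01 and 0.05. Of the 10 with the highest, only AW011738 had enough, with 314 contacts under IL-4 and 313 after washout (-0.05, -0.28 to 0.18).

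**Figure D5:**
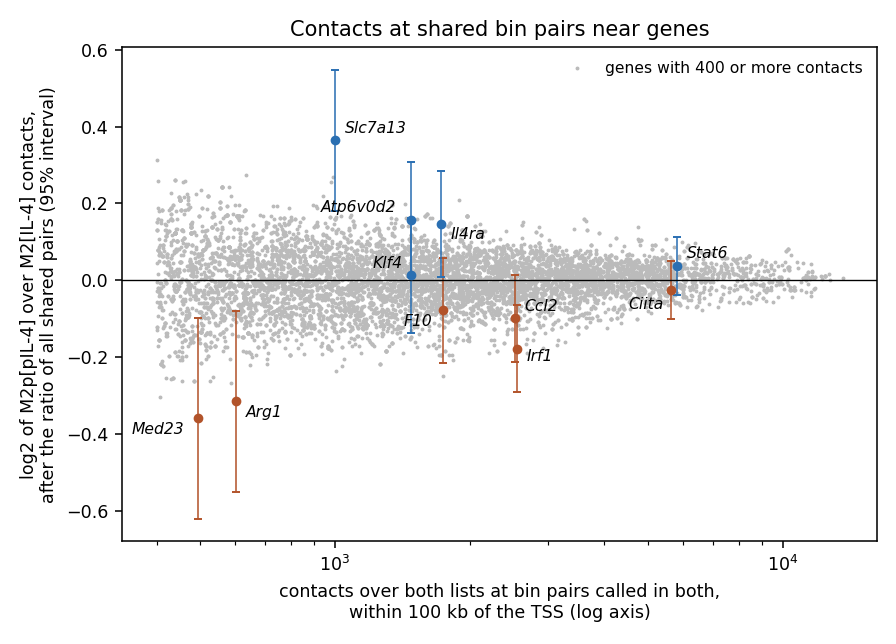
Contacts at bin pairs called in both lists, summed within 100 kb of each TSS, for 9093 genes with 400 or more contacts over both lists (x axis, log scale), against the log2 of M2p[pIL-4] over M2[IL-4] after division by the ratio over all shared pairs (y axis). Bars are 95% conditional binomial intervals that cover counting error only. Med23 (-0.36) and Arg1 (-0.32) are the lowest and Slc7a13 (0.36) is the highest.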

How the data were processed

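Hi-C was made from 10 BMDM samples, 2 in each of 5 groups, of which M2[IL-4] and M2p[pIL-4] (4 samples) were compared. The authors deposited 1 loop list per group, both samples pooled, with the raw count of contacts of each pair of 10 kb bins on mm10. The labels name FastQC, Bowtie2, HiC-Pro, Juicer and HOMER. The caller and threshold behind these lists are not given in the sources used here, since the methods describe calls at 25 kb. Each list starts at 5 contacts, and a missing loop may be one just under its caller's threshold.

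Loops were matched within 25 kb at both anchors. Gene starts were taken from GENCODE M21 (GRCm38) for 21728 protein-coding symbols. No anchor lay beyond a chromosome end of GRCm38.p6. Loops near a TSS (100 kb) were scaled by list length to the mean length, 1 was added, and 1.5-fold was called among genes with at least 20 loops over both lists. Named were all genes of the lists, the 10 highest and 10 lowest ratios, 1 per 200 kb, the 5 strongest lost and gained loops of at least 20 kb, 1 per 500 kb, and the strongest loops near the study's genes. The groups and gene lists were chosen with earlier results of these data known. Med23, Akap7, Wwp1, Slc7a13, Atp6v0d2, Mafk, Isg15, the single loops at Atp6v0d2 and Abcb6, and the bins with loops in 1 list only were named after their values were seen. Clec7a and Cxcl11 were not analysed here. Of 197 named genes 142 had a promoter in the RefSeq table. Intervals are Wilson (shares), Poisson (contacts of a loop) and conditional binomial (ratios), and cover counting error only. Those of shares and of loop numbers near genes treat bin pairs as independent, which touching pairs are not. Computations used scipy 1.17.1, pandas 2.3.3 and numpy 2.4.6 under Python 3.11.15, and figures matplotlib 3.10.9. The gene call was run on copies of the M2[IL-4] list with loops near chosen genes removed or doubled. False calls at unchanged genes were not counted there.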

Additional observations from a re-analysis of the deposited data

Results flagged for a closer look

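A signal outside the nuclear chromosomes was present in each list. All 5 lists held 1 bin pair of the mitochondrial genome, which no comparison of genes used. It carried 155 contacts in M2p[pIL-4] and 167 in M2[IL-4], with 105 in M0[CTR], 163 in IFNG and 220 in preIL4IFNG, so both compared lists were above M0[CTR] in raw contacts.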

How the results depend on the processing

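No paired analysis was possible because both samples of a group were pooled into 1 list, and for the same reason no sample could be left out. Over all settings, 97 values that answer a comparison stayed within their limits and 31 did not. In the same bins 51.1% of M2[IL-4] and 44.0% of M2p[pIL-4] loops were kept, 28484 were lost and 37952 gained, and 25.3% and 27.6% of those were in preIL4IFNG. Within 50 kb the values were 95.6%, 94.3%, 2545, 3867, 41.5% and 47.3%. With lists cut to equal length, 87.8% and 88.7% were kept, 7091 were lost and 6573 gained, which turned their order, and 43.9% of lost and 45.9% of gained loops were in preIL4IFNG. With touching bin pairs merged, 65.2% and 59.8% were kept, 39.1% of gained loops were in preIL4IFNG, and the ratio of loop numbers was 1.10. Without adjacent bins 90.2% of M2[IL-4] loops were kept and the ratio was 1.18, and shared pairs with at least 50 contacts in M0[CTR] had a median log2 contact ratio of 0.057. Genes called higher numbered 267 within 25 kb, 1264 without scaling, which moved the median of all genes to 0.19, 272 with a pseudocount of 5, 208 with merged pairs and 142 with at least 40 loops. Genes called lower numbered 196 without scaling, 261 with a pseudocount of 5 and 175 with at least 40 loops. The log2 ratio of Cpne3 was -0.11 with merged pairs, the only change of sign among the called genes of the lists and of the 10 highest and lowest ratios. For Arg1 it ran from -1.09 to -0.12 and for F10 from -1.19 to -0.44. For the genes, leaving out adjacent bins was chosen after seeing the data, as was leaving out bins with loops in 1 list for all results. Loops of few contacts were matched less often.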
